A study of Drosophila melanogaster with 2 samples.

Results

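Of the 26505 pooled candidate regions recovered with GFP-tagged cropped (crp) from fly embryos, 628 combined a high signal with a position away from the starts of protein-coding genes. They were selected on the measured pooled signal, which had to be at least 38.5, and on a summit more than 1000 bp from every protein-coding transcription start. The limit kept 2349 candidates in all, of which these 628 distal regions are 26.7%, and the other 1721 lay within 1000 bp of a start. Most distal regions fell in introns, and 69 of them belonged to the irreproducible discovery rate (IDR) list, the authors' list of peaks that passed a test of agreement between replicates. Those 69 were also the strongest of the 628 by pooled signal. All 69 had a counterpart in both replicates, which the choice of that list by replicate agreement makes likely. They carried the E-box CAGCTG at the summit far more often than the other 559, in which the E-box was as frequent at the summit as beside it.

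Chromatin immunoprecipitation with sequencing was done on whole Drosophila melanogaster embryos of pooled sex, aged 0 to 16 hours, from a transgenic line of strain crp-GFP in which GFP is fused to the C terminus of crp. The precipitation used an antibody to GFP, and the labels give biological replicates 1 and 3 of this single group. All embryos carry the transgene. The state of the native gene and the insertion site of the transgene were not stated in the labels. Whole embryos mix all cell types, so no region can be assigned to a tissue. The depth of the libraries is unknown, since the deposited lists hold regions and no read counts.

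Cropped, the fly counterpart of AP-4 of vertebrates, belongs to the helix-loop-helix proteins that also carry a leucine zipper. Such proteins bind DNA as dimers, each partner reading one side of a short palindrome of the form CANNTG, called an E-box, and CAGCTG is the form that AP-4 prefers. Cropped is known for its role in the terminal branching of the trachea, the insect airways. Regions away from promoters can be enhancers, which often lie in introns of the genes they control or between genes, but a bound region is not by itself an enhancer.

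The DNA at chosen distal summits is shown first, to show the E-box where it is present and strong summits that lack it. Each line gives the 101 bp centred on a summit, read from the reference genome (Release 6, dm6) on the forward strand, and capitals mark CAGCTG. The first 4 have ranks 1, 2, 4 and 6 by pooled signal, and of the 10 strongest regions 3 held the E-box. They are the intergenic summit near Rab8 at 3L:19861325-19861425, the summit in the first intron of mld at 3R:24586694-24586794, the summit in the first intron of ush at 2L:481007-481107, and the summit in the first intron of crp itself at 2L:16286149-16286249. The next 3 are the Appl intron at X:546594-546694, the intergenic summit near inc at X:1517806-1517906 and the Nhe2 intron at 2L:21108883-21108983. They are shown because each holds 2 copies of the E-box. The last, in the first intron of Tlk at X:3742172-3742272, stands for the strong summits with no copy.
Rab8 intergenic: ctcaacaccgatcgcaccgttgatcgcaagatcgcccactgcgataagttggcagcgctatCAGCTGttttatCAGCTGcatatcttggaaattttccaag
mld intron: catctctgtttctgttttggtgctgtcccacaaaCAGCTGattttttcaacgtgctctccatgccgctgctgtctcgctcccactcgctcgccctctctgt
ush intron: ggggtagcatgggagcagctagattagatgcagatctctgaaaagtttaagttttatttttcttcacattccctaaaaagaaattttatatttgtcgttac
crp intron: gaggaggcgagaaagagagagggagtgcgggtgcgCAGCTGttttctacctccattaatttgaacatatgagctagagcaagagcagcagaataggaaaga
Appl intron: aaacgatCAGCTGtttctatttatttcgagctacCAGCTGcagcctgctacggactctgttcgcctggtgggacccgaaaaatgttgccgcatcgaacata
inc intergenic: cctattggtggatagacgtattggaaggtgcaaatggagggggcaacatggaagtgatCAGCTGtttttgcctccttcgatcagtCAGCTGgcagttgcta
Nhe2 intron: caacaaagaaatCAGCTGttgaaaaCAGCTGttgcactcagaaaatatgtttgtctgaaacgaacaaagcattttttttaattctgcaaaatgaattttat
Tlk intron: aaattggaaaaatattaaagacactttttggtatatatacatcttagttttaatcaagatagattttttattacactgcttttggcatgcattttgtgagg

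Of these 8 summits, the mld and crp introns hold a single copy, and the ush and Tlk introns hold none. Among all 628 distal regions, 583 had no CAGCTG in the 101 bp, 39 had 1 copy and 6 had 2 copies.

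The signal value is the authors' own measure of enrichment for each region, given by their peak caller. In the pooled list it ran from 38.50 to 269.1 in the distal regions with a median of 43.1, so most lay not far above the limit. In the candidate list of replicate 1 their median was 19.7, and in that of replicate 3 it was 25.3. The 69 distal regions of the IDR list, 6.15% of its 1122 peaks, were the strongest 69 of the 628, with a median pooled signal of 80.5. The limit itself had no gap beside it. Just inside it were summits in introns of CG33144 and mthl13 (38.58) and of ph-p (38.55), between genes near CG7560 (38.53), in a 5′ UTR where the genes Ptpmeg and mth overlap (38.51), and in an intron of crp (38.50). The 5 distal candidates just below it had pooled signals of 38.46 to 38.48. For the distance, the nearest summits kept were 1008 to 1013 bp from a start, and the nearest left out at or above the signal limit were 957 to 1000 bp away.

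The strongest distal region lay on 3L with its summit at 19861375, 8183 bp from the nearest protein-coding start, that of Rab8, a small GTPase of vesicle traffic. It had a value of 158.1 in replicate 1, 112.6 in replicate 3 and 269.1 in the pooled list. The summit was 83 bp from the start of the long non-coding RNA CR45433, and the interval overlapped an annotated Rt1b transposon. The second lay in the first intron of mld, a zinc finger gene needed for ecdysone synthesis, 1091 bp from its start, with a pooled signal of 226.2 and values of 120.8 and 104.0 in replicates 1 and 3. In both regions replicate 1 was the higher. These 2 intervals were also narrower than the 404 bp of the other 626 regions, at 202 and 161 bp.

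Next in rank was an intergenic summit on 2R at 13035393, 11863 bp from CG13323, with a pooled signal of 161.4 and nearly equal replicates (80.1 and 79.6). The first intron of ush, which encodes a partner of GATA transcription factors, held a region of 160.6 (76.7 and 83.1). A region in the 3′ UTR of lwr, the fly enzyme that conjugates SUMO, had a pooled signal of 156.9, but replicate 1 (104.6) was well above replicate 3 (47.2). Of the 5 strongest regions it was the one whose replicates differed most. The strongest region in crp reached 135.9 (51.5 and 86.1). A region in a 5′ UTR where the chromatin remodeller gene Mi-2 overlaps the elongation factor gene Su(Tpl) reached 122.4 (53.0 and 86.7), and the first intron of the ubiquitin ligase gene Ubr3 held 122.3 (45.8 and 75.6). In each of these last 3 regions replicate 3 was the higher.

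The next 12 by rank ran from 112.8 down to 95.6 in pooled signal. Of these, 5 lay in introns of annotated protein-coding genes other than crp. The hosts were nAChRalpha3, a subunit of the nicotinic acetylcholine receptor, Tlk, a Tousled-like kinase, Lk6, a kinase of the translation factor eIF4E, and the less characterised CG10383 and CG9837. The nAChRalpha3 region overlapped an annotated H transposon. A second crp intron region stood at 108.0 (32.8 and 76.8). Of the remaining 6, 4 were intergenic, near CG31668 (112.1), near CG43131 (108.3), near corto, a chromatin factor gene (101.8), and near E2f2, a repressor of the E2F family (100.4). The other 2 lay in an exon of the long non-coding RNA CR44619 on X, at 98.4 and 96.2.

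Introns held most of the summits. Of the 628, 370 (58.9%, Wilson 95% interval 55.0 to 62.7%) were in an intron, 159 (25.3%) between genes, 51 (8.12%) in a 3′ UTR, 24 (3.82%) in an exon of a non-coding gene, 19 (3.03%) in a coding exon and 5 in a 5′ UTR. Among the 17850 weaker candidates also more than 1000 bp from protein-coding starts, 52.1% of the summits were intronic. The weaker candidates lay farther out, at a median of 4874 bp from a start against 3920 bp, and the groups were not matched on distance. The odds of an intron were 1.32 times as high in the stronger regions (95% interval 1.12 to 1.55, Fisher's exact test, p = 0.000847, adjusted p = 0.00113 over 4 such tests). By the same exact test the odds ratio was 1.20 (p = 0.0592) for summits more than 2000 bp from starts, and 1.14 (p = 0.255) for the 314 strongest regions. Coding exons made up 7.88% of the weaker candidates, and non-coding exons 1.42%. The share inside any protein-coding gene body was 70.9% against 69.7%, which was not tested.

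**Figure D1:**
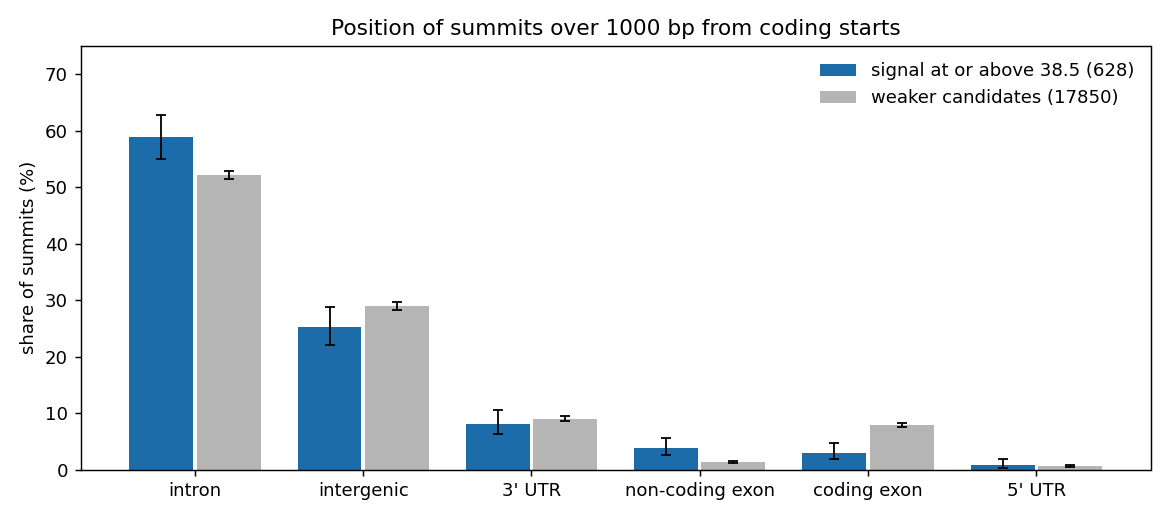
Share of summits (%, vertical axis) by annotated position for the 628 distal regions (blue) and the 17850 weaker candidates that are also over 1000 bp from starts (grey); bars carry Wilson 95% intervals. Introns held 58.9% against 52.1%, and coding exons 3.03% against 7.88%.

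The introns were mostly the first of a transcript. Of the 370 intronic regions, 245 (66.2%, 61.3 to 70.8%) lay in the first intron of at least 1 transcript, against 48.0% (46.9 to 49.0%) of 9301 weaker intronic candidates. The odds ratio was 2.13 (1.71 to 2.64, Fisher's exact test, p = 4.95e-12, adjusted p = 1.48e-11 over 3 tests chosen after their values were seen). Distance to the start moves with this result, since 25.8% of the distal regions lay 1000 to 2000 bp from a start against 19.7% of the weaker candidates. Within bins of distance the first-intron share was 83.0% against 66.8% at 1000 to 2000 bp, 74.8% against 56.2% at 2000 to 5000 bp, 56.8% against 45.4% at 5000 to 10000 bp, and 40.3% against 29.9% beyond 10000 bp. It was higher for the distal regions in each of the 4 bins.

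The distance to the nearest protein-coding start had a median of 3920 bp and reached 65214 bp. By bin, 162 regions lay 1000 to 2000 bp away, 199 lay 2000 to 5000 bp away, 137 lay 5000 to 10000 bp away, and 130 lay farther. A start of a non-coding gene was within 1000 bp of 68 regions (10.8%) and of 5.72% of the weaker candidates. The odds ratio was 2.0 (1.55 to 2.61, Fisher's exact test, p = 1.07e-06, adjusted p = 1.07e-06 over the same 3 tests). In the IDR list the count was 14 of 69 (20.3%). Among these 14 were summits 35 bp from the start of the long non-coding RNA CR31840 (pooled signal 74.3), 38 bp from that of CR45355 (61.9) and 143 bp from that of CR43650 (79.7). Far from protein-coding starts therefore did not mean far from every annotated start.

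An annotated transposon overlapped 30 regions (4.78%), and 23 of these were INE-1 elements. The share was 3.80% in the weaker distal candidates and 0.749% in the 668 promoter candidates at or above the limit outside the IDR list, against 4.47% of the distal regions outside it. Short repeated sequence can affect where reads are placed, and its part in the signal was not tested. By arm, 166 regions were on 3L, 149 on 2L, 136 on 3R, 94 on 2R, 54 on X and 29 on chromosome 4. The X held 8.60% of the distal regions and 13.0% of the weaker distal candidates, and chromosome 4 held 4.62% and 2.82%. The shares by arm and by transposon were not tested.

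All 628 regions had a counterpart in at least 1 replicate list, where a counterpart is a candidate that overlaps at least 50% of the shorter interval. The count was 583 (92.8%) in replicate 1, 616 (98.1%) in replicate 3 and 571 (90.9%, 88.4 to 92.9%) in both. Of the rest, 12 were found in replicate 1 alone and 45 in replicate 3 alone. All 57 of these lay outside the IDR list. Outside the IDR list, the share found in both was 89.8% of distal regions and 89.2% of promoter candidates at or above the limit. With the IDR list included it was 90.9% and 95.5%, and in weaker distal candidates it was 24.7%. The pooled list was made from the same reads and each replicate list holds 30000 candidates, so presence in both is a description and not independent evidence. The share depended on the overlap asked for, at 93.9% for any overlap, 75.8% for summits within 100 bp, and 67.2% for at least 80% overlap.

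The signals leaned to replicate 3. Of the 571 regions with a value in both, 390 were higher in replicate 3 and 181 in replicate 1, and their median log2 ratio, replicate 3 over replicate 1, was 0.36 with a standard deviation of 0.69 across regions. The median log2 ratio was 0.08 in promoter candidates outside the IDR list and −0.19 in promoter peaks of the IDR list. It was 0.19 in weaker distal candidates. The 2 lists are on their own scales, with medians of 12.5 and 14.5 over all their candidates. Taking the strongest 2349 candidates of each replicate, 252 distal regions (40.1%) were among those of replicate 1, 338 (53.8%) among those of replicate 3, 113 (18.0%) among both and 151 (24.0%) among neither. For the 668 promoter candidates outside the IDR list the share among both was 26.2%, against 8.59% of the 559 distal regions outside it.

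**Figure D2:**
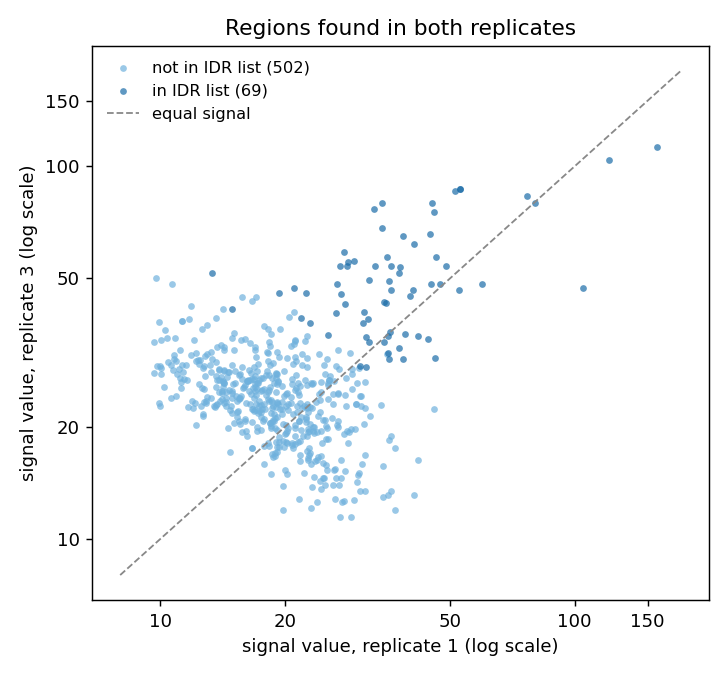
Signal value in replicate 1 (horizontal axis) and replicate 3 (vertical axis), both on log scales, for the 571 distal regions found in both; dark points are the 69 regions of the IDR list, and the dashed line marks equal signal. More points lie above the line (390) than below it (181), and the IDR regions form the upper right of the cloud.

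The E-box CAGCTG was sought in the 101 bp centre of each region, on both strands at once because it is its own reverse complement, and in flanks that ran from 300 to 350 bp to the left and to the right of its summit. A centre holds 96 positions for a hexamer and the flanks together 92. In the 628 distal regions 45 centres (7.17%, 5.40 to 9.45%) and 30 pairs of flanks (4.78%) held it. With 44 regions having it in the centre alone and 29 in the flanks alone, the exact binomial test gave p = 0.101 and an adjusted p of 0.335 over 10 E-boxes. Windows of 101 bp tiled over the genome held CAGCTG in 4.24% of cases.

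This pooled figure joined unlike groups. In the 69 regions of the IDR list 20 centres (29.0%, 19.6 to 40.6%) held CAGCTG, and 19 regions had it in the centre alone against 4 in the flanks alone (exact binomial test, p = 0.0026). In the other 559 regions 25 centres (4.47%) and 25 pairs of flanks held it, with 25 against 25 on each side alone. The odds of a central CAGCTG were 8.72 times as high in IDR regions as in the others (4.53 to 16.6, Fisher's exact test, p = 1.74e-09, adjusted p = 2.62e-09 over the 3 tests chosen after their values were seen). In 4 groups of 157 regions by pooled signal, the share was 3.82% in the weakest, 4.46% in each of the next 2 and 15.9% in the strongest. The IDR regions were also the strongest 69, so signal and IDR membership go together here. Of the 502 other regions found in both replicates, 19 (3.78%) held a central CAGCTG.

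Promoter candidates of the same signal range carried the E-box more often. Outside the IDR list, 140 of 668 promoter candidates (21.0%, 18.0 to 24.2%) had a central CAGCTG, against 25 of 559 distal regions. The odds ratio was 0.177 (0.116 to 0.278, Fisher's exact test, p = 1.12e-18, adjusted p = 4.5e-18 over 4 tests). Within the IDR list the shares were 49.5% at promoters and 29.0% in distal regions (odds ratio 0.417, 0.249 to 0.718, Fisher's exact test, p = 0.0011). Outside the IDR list the promoter candidates were also slightly stronger, with a median signal of 45.7 against 42.4. Within the IDR list the groups were not matched on signal, and the gap was wider, with medians of 113.6 at promoters and 80.5 in distal regions. The part of these gaps in the differences was not tested.

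Weaker distal candidates had a central CAGCTG in 3.66% of cases, which was lower than the 7.17% of the distal regions at the limit (odds ratio 2.03, 1.5 to 2.8, Fisher's exact test, p = 4.16e-05, adjusted p = 8.32e-05). That difference rested on the IDR regions, since without them the odds ratio was 1.23 (Fisher's exact test, p = 0.305). Intronic and intergenic regions had it in 7.57% and 6.92% of centres, and the odds ratio of 1.10 had an interval from 0.528 to 2.19 (Fisher's exact test, p = 0.858). By distance the share was 9.26% at 1000 to 2000 bp, 7.04% at 2000 to 5000 bp, 5.11% at 5000 to 10000 bp and 6.92% farther out, with overlapping intervals.

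**Figure D3:**
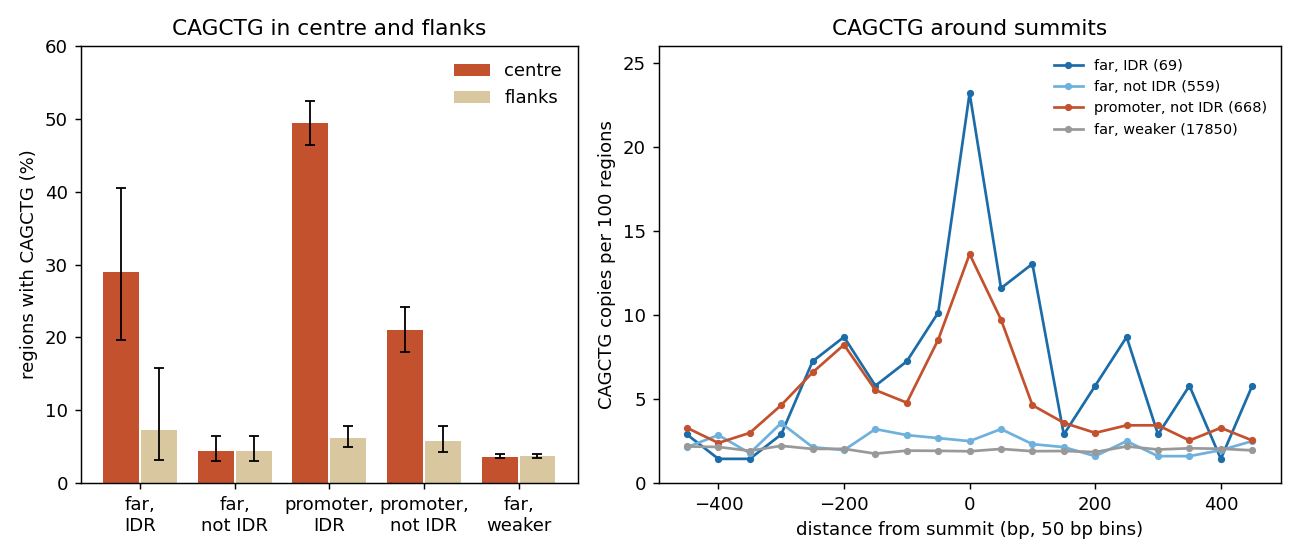
Left, share of regions with CAGCTG (%) in the 101 bp centre and in the flanks, with Wilson 95% intervals; "far" marks regions over 1000 bp from protein-coding starts and "IDR" those of the IDR list. Right, CAGCTG copies per 100 regions by distance from the summit (bp) in 50 bp bins: the 69 distal IDR regions reach 23.2 in the central bin, and the other 559 distal regions have 2.50 there.

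Beside the strongest regions, the 6 with 2 copies of CAGCTG in the centre were spread over several kinds of position. The Appl intron region, in the gene of the fly amyloid precursor protein, reached 82.8 (36.0 in replicate 1, 46.5 in replicate 3) and lay 15474 bp from the start. The region near inc, which encodes an adaptor of a ubiquitin ligase, had 73.7 (35.9 and 36.0), and the region in Nhe2, a sodium/proton exchanger gene, had 65.8 (37.6 and 32.6). A region in a 5′ UTR of dos, a signalling adaptor gene, had 52.3 (18.5 and 21.7). A region 15058 bp from the start of Mnt, which encodes another helix-loop-helix leucine zipper protein, had 42.5 (28.1 and 22.7). With the region near Rab8, 4 of the 6 were in the IDR list.

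Across the 10 distinct E-boxes of the form CANNTG, none was called in either direction at an adjusted p under 0.05, which is 0% called by the exact binomial test with Benjamini-Hochberg adjustment. At an unadjusted p under 0.05 the count was 0 higher in the centre and 1 higher in the flanks. That one was CACATG, at 3.03% in the centres against 5.41% in the flanks (p = 0.0489, adjusted p = 0.290, exact binomial test). CAGATG leaned the same way, at 3.18% and 5.57% (exact binomial test, adjusted p = 0.290). CACGTG, the E-box read by Myc and Max, was in 1.11% of centres and 1.43% of flanks. CATATG (4.62% of centres, 3.34% of flanks), CACCTG (3.82% and 2.55%) and CAAATG (10.03% and 8.28%) leaned to the centres. CAACTG (5.73% and 7.17%), CAAGTG (6.37% and 6.53%) and CAATTG (3.66% and 4.78%) leaned to the flanks.

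Of all 2080 hexamers, each joined with its reverse complement, 25 (1.2%) were called higher in the centres and 4 (0.192%) higher in the flanks. ATTAAA had among the lowest p-values, at 24.7% in the centres against 12.9% in the flanks (adjusted p = 0.00028, exact binomial test), followed by TTAAAA (27.4% and 15.3%) and ATTTAA (22.9% and 11.6%). Of the 25, 19 held A and T alone. The 4 called higher in the flanks were GCAGCA (5.25% of centres and 12.7% of flanks), AGCGAC (0.796% of centres and 3.82% of flanks), CCGCTC (1.59% of centres and 5.25% of flanks) and CGCGTA (no centre and 1.91% of flanks). Base composition moved with these calls, since the centres had 36.6% G and C and the flanks 41.0%. Its part in them was not tested. No hexamer was called among the 69 IDR regions, where 37.7% and 42.9% were G and C, and 1 was called when the flanks began at 500 bp.

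Binding sequences of 16 listed factors were sought in the same way, on both strands and with overlaps between motifs allowed. The homeodomain core TAATTA was called higher in the centres (1 of 16, 6.25%), in 10.8% of them against 6.21% of flanks (adjusted p = 0.0443, exact binomial test), and 6.47% of genome windows held it. TGGGAA, the core read by Su(H) of the Notch pathway, was called higher in the flanks (also 1 of 16, 6.25%), at 4.14% in the centres against 8.12% in the flanks (exact binomial test, adjusted p = 0.0443). Its share of genome windows was 5.95%. Both calls were lost in most other settings, with 0 calls when the flanks began at 500 bp or when the regions were taken from the list of a single replicate. These matches are letters in a window, not sites shown to be bound.

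The other 14 listed motifs, CAGCTG included, were not called. CAGGTA, read by the early activator Zelda, was in 1.59% of centres, 2.39% of flanks and 2.30% of genome windows. GAGAGA, read by GAGA factor, was in 4.46%, 5.41% and 3.55% of them, and GATAAG, read by GATA factors, in 4.78%, 3.50% and 4.22%. TTTATG (Caudal) was in 16.6% of centres against 12.9% of flanks, and ATTGTT (Sox) in 11.9% against 11.6%. TGANTCA (AP-1), ATCAAAG (TCF), AGGTCA (nuclear receptors), GCCAT (Pho) and CGATA (BEAF-32) were in 2.55%, 1.43%, 1.75%, 15.3% and 11.8% of centres. The promoter motif TATCGATA (DREF) was in 0.318% of distal centres, 0.275% of genome windows and 2.99% of promoter candidates outside the IDR list. GGTCACACT (M1BP) was in 0.478%, 0.0975% and 1.20% of them, and ACCGGTT (Grainyhead) was in none of the 628 centres.

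The largest group of neighbouring distal regions lay in crp itself, the gene of the tagged protein, at 2L:16263556-16287730 on the reverse strand. Its gene body of 24175 bp held 14 distal regions, all intronic, over 19373 bp, of which 6 were in the IDR list and 4 had a central CAGCTG. The 6 had pooled signals of 135.9, 108.0, 89.3, 79.0, 67.7 and 61.5. In replicate 1 their values were 51.5, 32.8, 27.7, 27.2, 26.6 and 38.4, and in replicate 3 they were 86.1, 76.8, 58.7, 54.0, 48.3 and 30.4. Replicate 3 was the higher in the first 5, and replicate 1 in the last. Of the 14, 13 were found in replicate 1 and 13 in replicate 3.

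The group went on beyond the gene. Within 100000 bp of crp on either side were 26 distal regions, 4.14% of all 628, with a single region upstream of the start and the others inside or downstream. Counted in steps of 10 kb from the start in the direction of transcription, the numbers were 6, 7, 1, 1, 3, 3, 2, 1, 0 and 1, and no distal region lay in the first 60 kb upstream. All pooled candidates, whatever their signal or position, were also dense there, with 13 and 14 in the first 2 steps. Windows of 10 kb across the genome had a mean of 1.98, a median of 2 and a maximum of 14. Those windows were not aligned with the steps from the crp start, so their maximum is not directly comparable with the counts of the steps. Replicate 1 had 14 and 11 candidates in the first 2 steps and replicate 3 had 16 and 13. The flies carry a crp transgene, so the native gene and the transgene cannot be told apart in these lists. Without the 26 regions, the share within 5000 bp of another distal region was 16.9%.

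**Figure D4:**
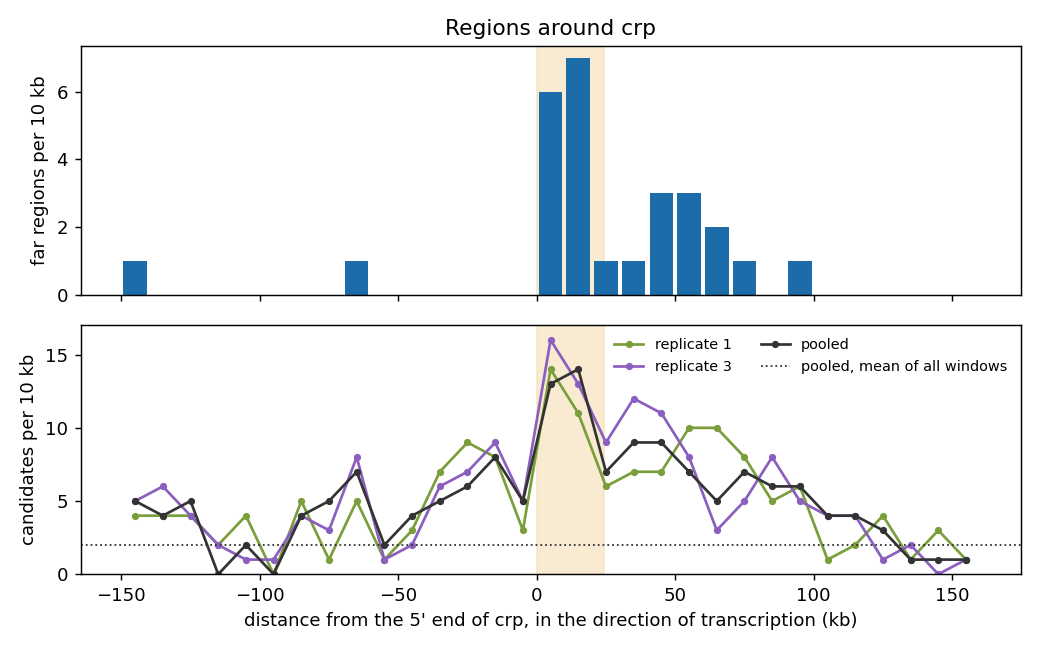
Number of distal regions (top) and of all candidates in the pooled, replicate 1 and replicate 3 lists (bottom) per 10 kb, by distance from the 5′ end of crp in the direction of transcription (kb); shading marks the gene. The first 2 steps inside the gene hold 6 and 7 distal regions and 13 and 14 pooled candidates, against a genome mean of 1.98 pooled candidates (dotted line).

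Over the genome 125 distal regions (19.9%) had another within 5000 bp, 36 (5.73%) within 1000 bp and 255 (40.6%) within 20000 bp. Joined at 5000 bp they formed 549 groups, of which 503 were single regions, 31 were pairs, 10 were trios and 5 held 4 or more. After the 14 in crp, the next held 6 regions from 16216375 to 16233851 on 2L, with pooled signals of 39.1 to 52.4 and none in the IDR list. It lies within 100000 bp of crp. Then came 5 regions over 4496 bp on 3L where Mi-2 and Su(Tpl) overlap, with pooled signals of 122.4, 67.0, 64.8, 40.9 and 39.1. The region of 122.4 and that of 64.8 overlap each other and share their counterpart in each replicate. In sbb, a corepressor gene on 2R, 4 regions spanned 4879 bp. A promoter peak of the IDR list was within 5000 bp of 58 distal regions (9.24%), against 5.43% of the weaker distal candidates.

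The 445 regions in gene bodies had 361 protein-coding host genes, 2.58% of the 13968 annotated. Of these hosts 293 held 1 region, 46 held 2 and 22 held 3 or more, and 29 regions lay in more than 1 gene. Hosts were long genes, with a median length of 22779 bp against 2164.5 bp for all protein-coding genes. Of the 1020 genes longer than 20000 bp, 196 (19.2%) held a distal region, and this share is set beside the gene lists. After crp, the hosts with the most regions were Mi-2 and Su(Tpl), which share their 5, sbb with 5, and the Hox gene Antp with 5. The homeodomain gene hth, the exchanger gene Nhe2, the BMP pathway transcription factor gene shn, the kinase gene nmo and CG46458, which overlaps Antp, held 4 each. Per 100000 bp of gene, crp had 57.9 regions, Su(Tpl) 24.6, Mi-2 17.8, Antp 4.86 and hth 3.03.

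Among signalling genes, Wnt, Hedgehog and BMP genes held distal regions in 10 of 36 cases. The strongest was in the Wnt receptor gene fz, with a pooled signal of 64.1 and values of 35.5 and 31.5 in replicates 1 and 3. The counts of this list include hth (63.5), a homeodomain gene that is not a component of these pathways and is listed again under segmentation and Hox. Next came shn (56.8) and Dad, an inhibitor of BMP signalling (51.2). Of 27 EGFR, FGFR and Ras genes, 7 held a region. They included the EGF receptor ligand gene spi (60.6, with 20.4 and 39.5 in replicates 1 and 3), S, which encodes the cargo receptor of that ligand (58.4), the FGF gene pyr (49.0) and the EGF receptor inhibitor gene aos (43.0). Of 19 Notch pathway genes 3 held a region, in the ubiquitin ligase gene neur (70.5, with 31.3 and 34.8 in replicates 1 and 3), the glycosyltransferase gene fng (38.8) and the coactivator gene mam (38.6). The region in neur was in the IDR list, and those in fng and mam lay just above the limit.

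Ecdysone response genes, which answer the molting steroid, held a region in 8 of 27 cases. The strongest regions were in nuclear receptor genes, Hr3 at 75.1 (46.0 and 30.5 in replicates 1 and 3), Hr4 at 70.3 (30.9 and 40.5) and Eip75B at 59.0 (22.6 and 35.1), while the receptor genes Hr39 (41.3) and EcR (38.7) lay near the limit. ImpL2, an inhibitor of insulin signalling, had 52.9 (13.0 and 37.5). Replicate 1 was the higher in Hr3, and replicate 3 in Hr4, Eip75B and ImpL2. Of 37 Polycomb, trithorax and chromatin genes 6 held a region. Beside Mi-2 these included the histone methyltransferase gene trx (83.6, with 29.3 and 55.8 in replicates 1 and 3), Trl, which encodes GAGA factor (78.6, with 40.1 and 44.9), and the remodeller subunit gene osa (44.9).

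Axon guidance and dendrite genes held a region in 9 of 43 cases, with Appl and fz ahead of the netrin receptor gene fra (56.3) and the semaphorin gene Sema1a (46.5). Of 50 genes of actin, polarity and junctions 7 held a region, the strongest in the junction gene cno (80.5, with 32.0 and 49.4 in replicates 1 and 3), then fz, the polarity kinase gene par-1 (52.7) and ena (45.2), an actin regulator. Of 37 muscle genes 5 did, among them Mef2, the myogenic transcription factor gene (64.7, with 25.4 and 35.2), zfh1 (49.8), bt (42.4) and Tm1 (41.3). Of 32 segmentation and Hox genes 4 did: hth, Antp (56.7), Abd-B (48.1) and Scr (38.7).

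Tracheal, blood cell and helix-loop-helix genes were also counted. Of 30 tracheal genes 3 held a region, in ush, rib (42.3) and sty (40.8), and of 25 GATA and hemocyte genes 3 did, in ush, Pvf3 (48.3) and GATAd (42.5). Of 51 basic helix-loop-helix genes 3 did, namely crp with its 14 regions, tai (42.3) and Mitf (40.4). The share of each list ran from 5.88% to 29.6%, against 2.58% of all protein-coding genes and 19.2% of those over 20000 bp. The Wilson interval of every list but the helix-loop-helix genes, whose upper bound was 15.9%, included 19.2%. Each list holds genes of all lengths, so this does not compare genes of equal length. The helix-loop-helix genes are short, with a median length of 2841 bp. Among listed genes over 20000 bp, 3 of 10 helix-loop-helix genes and 2 of 12 tracheal genes held a region. So did 8 of 35 axon guidance and dendrite genes, 4 of 8 segmentation and Hox genes, and 2 of 7 Notch genes. In signalling the counts were 3 of 11 (EGFR, FGFR and Ras) and 9 of 14 (Wnt, Hedgehog and BMP, with hth among the 9). Ecdysone genes had 6 of 13, GATA and hemocyte genes 2 of 4, and muscle genes 5 of 17. Actin, polarity and junction genes had 7 of 22, and chromatin genes 4 of 5. Lists share genes, fz standing in 3 of them, and were not tested.

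**Figure D5:**
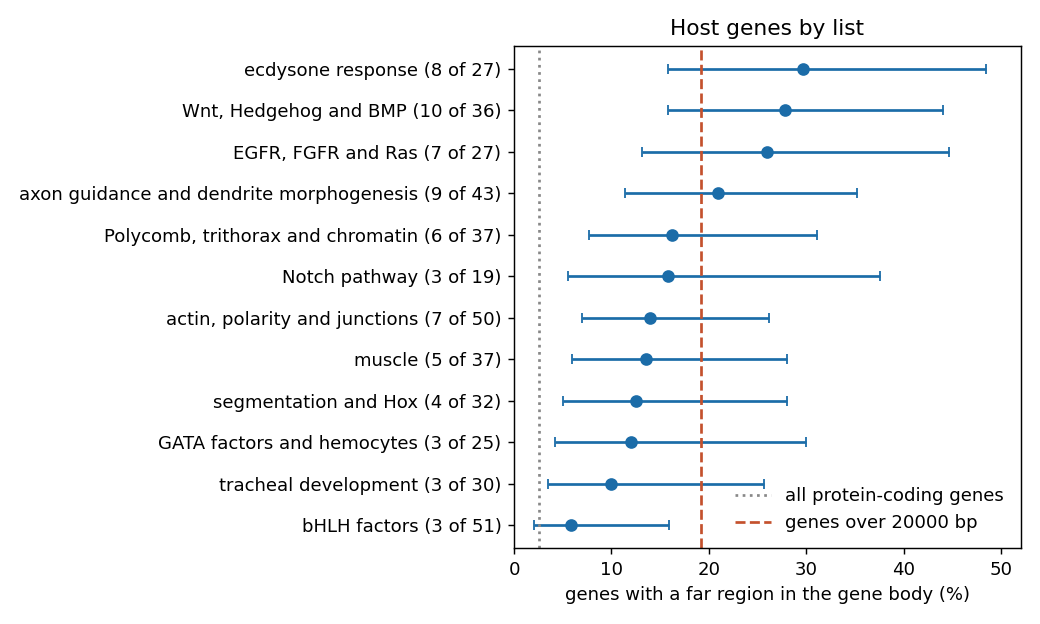
Share of listed genes with at least 1 distal region in the gene body (%, horizontal axis) for 12 lists, with Wilson 95% intervals and counts beside each name; the dotted line is the share of all protein-coding genes (2.58%) and the dashed line that of genes over 20000 bp (19.2%). The points run from 5.88% to 29.6%, and each list holds genes of all lengths.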

How the data were processed

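The deposited narrowPeak lists in dm6 were used: the candidates of replicates 1 and 3, the pooled candidates and the IDR list. The dm3 lists were not used. Per the labels, the candidate lists are peaks and background made as input for IDR, from chromatin sheared to 200 to 800 bp. The authors deposited a signal value for each region, their peak caller's enrichment measure, and −log10 q values, which were not used to rank. The tenth column of the deposited lists, a summit offset in bp, placed the summits. Neither aligner, nor peak caller, nor IDR threshold is given in the sources used here. Intervals cover counting error only, and whether the replicates came from separate collections beyond their label is not stated.

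Starts, introns and gene bodies came from Ensembl release 115, and a summit in several features took, in order, coding exon, 5′ UTR, 3′ UTR, intron and non-coding exon. Members and lists were chosen with earlier results of these data known. The 20 strongest regions, the hosts with the most regions, up to 4 genes per list and all motifs were named. The result of 1 group of neighbouring regions is left out of the text. For 10 symbols in the lists, among them Dl of the Notch pathway, no protein-coding gene of that symbol was found, and they were left out of the counts. A gene annotated under another symbol could be missed in this way. Shares were compared by two-sided Fisher's exact tests, with 0.5 added to each cell for the intervals of odds ratios, and centres with flanks by two-sided exact binomial tests. Neighbouring regions are not independent, which these tests ignore. Benjamini-Hochberg adjustment was applied within each family of tests, with calls made under 0.05. The scan was tested on simulated data. Python 3.11.15, NumPy 2.4.6, pandas 2.3.3, SciPy 1.17.1 and matplotlib 3.10.9 were used. Alternatives changed the windows, the distance, the overlap, the replicate and the regions kept.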

Additional observations from a re-analysis of the deposited data

How the results depend on the processing

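The lower CAGCTG share against promoter candidates kept its direction and its side of the threshold in all 15 other settings (odds ratios 0.124 to 0.417). So did the 3 tests chosen after their values were seen, in the 12 or 13 settings that apply to each. Several settings narrowed the distal regions and left the 668 promoter candidates and 17850 weaker distal candidates whole. They included the 314 strongest regions, those found in both replicates, those without transposons, those outside crp, and the strongest summit of each overlapping cluster. The settings outside the IDR list, outside crp extended by 100000 bp, without transposons and with IDR peaks alone were chosen after seeing the data. For CAGCTG in the centre against the flanks, the share of regions with it in the centre alone was 60.3% (exact binomial test, p = 0.101). It passed the threshold at 63.9% with 100 bp on each side (exact binomial p = 0.00266), 82.6% for IDR regions (p = 0.0026), 66.4% with starts over 500 bp away (p = 0.000641), and 63.0% to 64.9% in the lists of single replicates (p = 0.0257 and 0.0117), and it was 50% outside the IDR list. In the first 3 of these settings 1 E-box was called in place of 0. Hexamer calls were 29 in all and became 11 with 25 bp on each side, 1 with flanks from 500 bp, 4 in the 314 strongest regions, 0 in the IDR regions, 10 with starts over 2000 bp away, 17 with starts of all genes, 18 outside the IDR list, and 0 to 7 without a replicate. Calls of listed motifs fell from 2 to 0 or 1 in 15 settings, 0 in both lists of single replicates. Against weaker distal candidates, CAGCTG had an odds ratio of 1.23 outside the IDR list, and the intron share had 1.14 in the 314 strongest, 1.35 in the IDR regions (Fisher's exact p = 0.230) and 1.20 with starts over 2000 bp away, none past the threshold. The odds ratio of intronic against intergenic regions, 1.10, became 0.976 and 0.948 outside crp extended by 20000 and 100000 bp, 1 in the 314 strongest, 0.828 in the IDR regions, 0.944 with starts over 2000 bp away, and 0.853 to 1.17 without a replicate. The share within 5000 bp of another region, 19.9%, was 16.9% outside crp extended by 100000 bp, 16.6% outside the IDR list, and 18.7% to 24.2% without a replicate, while 1000 and 20000 bp gave 5.73% and 40.6%. The share found in both replicates, 90.9%, was 95.9% in the 314 strongest, 100% in the 69 of the IDR list, and 93.9%, 67.2% and 75.8% under the other overlaps. The cause of these changes was not tested, beyond the fewer regions tested by construction. No analysis paired by sample was possible because the replicates form a single group. The tests of centres against flanks did pair the windows of each region.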
